A study of Mus musculus with 2 samples.

Results

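The miR-200 family, miR-203 and miR-205 are small RNAs of epithelial cells, and their 7 genes were described here in the mouse embryonic forebrain. They are Mir200b, Mir200a and Mir429 of the chromosome 4 cluster, Mir200c and Mir141 of the chromosome 6 cluster, and the single genes Mir203 and Mir205. Members were chosen by gene name, and all 7 were found among 1973 counted genes. The tissue was forebrain from healthy B6NCrl embryos at 10.5 days of development, with both sexes pooled. There was 1 group of 2 libraries and no second condition. Replicate 1 pooled 69 embryos and replicate 2 pooled 51 embryos, so each value is an average over many embryos, and neither sex nor single embryos can be followed. Per the labels, fragments shorter than 30 nt were selected.

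A miRNA is cut from a hairpin and guides silencing complexes to messenger RNAs that pair with its seed, the bases 2 to 8 of the mature strand. The miR-200 family keeps epithelial cells epithelial by repressing the transcription factors Zeb1 and Zeb2, which in turn bind E-box sequences and repress the miR-200 genes and the cadherin gene Cdh1. In mice the family is also known from the olfactory epithelium. miR-203 limits the division of skin progenitors by repressing Trp63, and miR-205 is a miRNA of skin and other stratified epithelia.

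The mature strands below are the arms for which these miRNAs are best known, taken from RefSeq for GRCm38.p6, and all 7 genes were matched there. They are shown because seed and family membership follow from their letters. The seed is in capitals.
miR-200b-3p: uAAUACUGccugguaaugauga
miR-200c-3p: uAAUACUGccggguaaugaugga
miR-429-3p: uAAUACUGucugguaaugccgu
miR-200a-3p: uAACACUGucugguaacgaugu
miR-141-3p: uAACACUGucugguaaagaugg
miR-203-3p: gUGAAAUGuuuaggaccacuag
miR-205-5p: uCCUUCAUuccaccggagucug

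The 5 miR-200 strands fall into 2 seed groups that cut across the clusters. miR-200b, miR-200c and miR-429 share the seed AAUACUG, whose matching site in a target reads CAGTATT, and miR-200a and miR-141 share AACACUG, with the site CAGTGTT. Counted from the 5′ end, the seed groups differ inside the seed by U4C from miR-200b-3p to miR-200a-3p. Within the groups, miR-200b-3p and miR-200c-3p differed at 2 of 22 positions compared, U11G and A22G, and miR-200a-3p and miR-141-3p at 2, C17A and U22G. From miR-429-3p, miR-200b-3p differed at 4 positions and miR-200c-3p at 5. Across the groups, miR-200b-3p and miR-200a-3p also differed at 4. The longest run shared by any pair of the 5 strands was 16 nt, between miR-200a-3p and miR-141-3p. No mature sequence of the 7 genes, of either arm, was found whole in another RefSeq hairpin. The seeds of miR-203-3p and miR-205-5p were found in no other mature sequence of the table. The counts are per hairpin, so the arms of a hairpin cannot be told apart.

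Replicate 1 held 3256070 and replicate 2 held 3574530 reads counted on the strand of a gene. Levels are given as CPM, the usual depth-scaled count, taken over these reads. One read was worth 0.307 CPM in replicate 1 and 0.280 CPM in replicate 2, and the 7 genes had mean counts of 907 or more. Multimapping reads made up 30.1% of the sequenced reads of replicate 1 and 28.8% of those of replicate 2, and they entered no gene's count. Among the miRNAs listed here for forebrain progenitors, Mir92b had 19407 CPM in replicate 1 and 17048 CPM in replicate 2. Mir135a-1 and Mir135a-2 of the same list were far lower, at 313 and 141 CPM on average. Mir9-3 and Mir9-2, known from the same cells, were counted at 339 and 5.58 CPM on average, but miR-9 is made from several loci and its reads can be lost to multiple mapping. Mir10a of the Hox clusters, a hindbrain and trunk miRNA, had 96.1 CPM in replicate 1 and 133 CPM in replicate 2.

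All 7 genes were well above the detection limit. Together they held 33707 reads in replicate 1 and 32441 reads in replicate 2. That is 1.04% of the counts in replicate 1 (95% exact Clopper-Pearson interval 1.02 to 1.05) and 0.908% in replicate 2 (0.898 to 0.917), or 0.971% ± 0.090 (SD, n = 2). Such intervals describe counting error alone and leave out the spread between pools. PCR copies of a molecule are counted separately, which the intervals do not allow for either. The 5 miR-200 genes held 62.3% of the reads of the 7 genes in replicate 1 and 58.1% in replicate 2. In bulk tissue, few cells with much of a miRNA and many cells with little of it cannot be told apart, and which cells the reads came from was not tested.

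Mir429 had the highest mean level of the 7 genes. It had 10830 reads or 3326 CPM in replicate 1 and 9516 reads or 2662 CPM in replicate 2, and ranked 62 of all genes by mean level. Mir205 followed at rank 67, with 8452 reads or 2596 CPM in replicate 1 and 9307 reads or 2604 CPM in replicate 2. In CPM, the spread of Mir205 between the libraries was the smallest of the 7, at 5.6 CPM around a mean of 2600 CPM (SD, n = 2). That of Mir429 was the largest, at 469 CPM around 2994 CPM. A spread in CPM is not relative to the level, and Mir200a had the largest log2 ratio between the libraries, at 0.41. Mir200c had 4718 reads or 1449 CPM in replicate 1 and 4224 reads or 1182 CPM in replicate 2. Mir203 had 4266 reads or 1310 CPM in replicate 1 and 4283 reads or 1198 CPM in replicate 2. Mir200c and Mir203 stood next to each other, at ranks 100 and 101. Mir200b had 3090 reads or 949 CPM in replicate 1 and 3033 reads or 849 CPM in replicate 2, at rank 111. Mir200a had 1446 reads or 444 CPM in replicate 1 and 1169 reads or 327 CPM in replicate 2, at rank 152. Mir141 was lowest, at rank 178, with 905 reads or 278 CPM in replicate 1 and 909 reads or 254 CPM in replicate 2. Even Mir141 lay above the median of the 401 genes that reached a mean count of 10, which was 161 CPM.

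**Figure D1:**
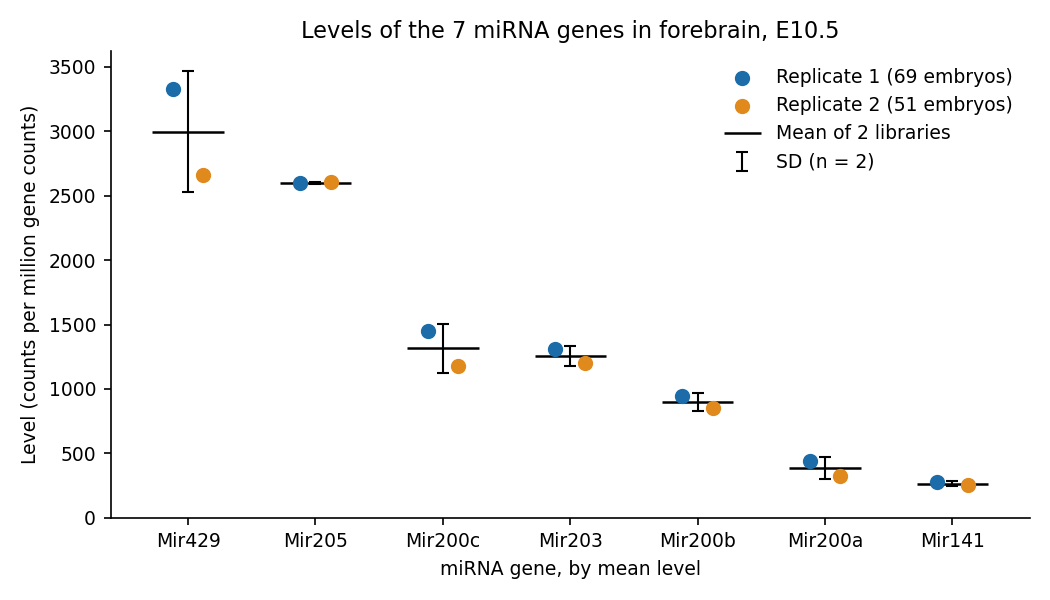
Level of each gene in CPM (y axis, from 0) for the 7 genes (x axis, by mean level), with a blue point for replicate 1, an orange point for replicate 2, a black line for the mean and bars for the SD (n = 2). Mir429 and Mir205 average 2994 and 2600 CPM, and the points of Mir429 lie furthest apart.

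Neighbours in this order were compared within each library, where they share the depth. A difference is named here when it keeps its sign in both libraries and its mean exceeds 2 SD, a description over 2 libraries and not a test. Differences between genes, clusters and seed groups are differences in reads. How evenly different miRNAs enter a library was not measured, and a bias shared by both libraries would not show in the SD. Fragments below 30 nt cover only part of hairpins of 68 to 90 nt, so levels are per read. The order was also taken per hairpin base, which shows only the effect of that divisor, since reads of mature arms need not grow with hairpin length. Mir429 and Mir205 did not differ beyond their spread, with a log2 difference of 0.19 ± 0.23 (SD, n = 2), and per hairpin base Mir205 came first. Mir200c and Mir203 did not either, since the log2 difference was 0.15 in replicate 1 and −0.020 in replicate 2. The steps from Mir205 to Mir200c (0.99 ± 0.21), from Mir203 to Mir200b (0.48 ± 0.023) and from Mir200b to Mir200a (1.24 ± 0.20) exceeded 2 SD. The step from Mir200a to Mir141 (0.52 ± 0.22) also did. Per hairpin base this last step was 0.35 in replicate 1 and 0.041 in replicate 2.

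**Figure D2:**
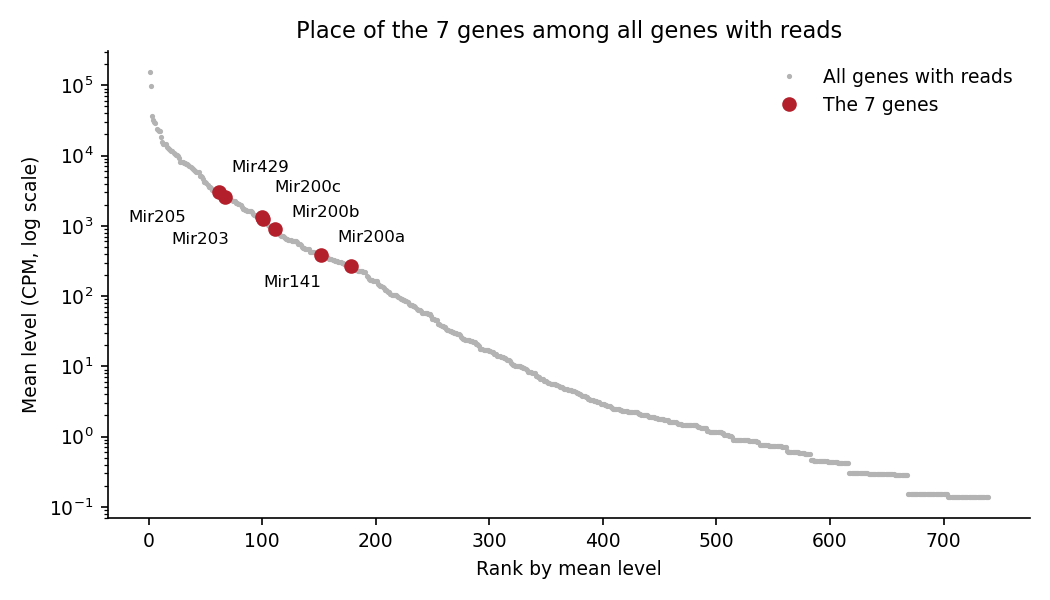
Mean level in CPM (y axis, log scale) against rank (x axis) for every gene with reads, in grey, and the 7 genes, in red and labelled. The 7 genes lie between ranks 62 and 178 on the upper slope of the curve.

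The genes nearest in level to each member were read from the ranks, with likeness measured only as the difference in mean log2 CPM over the 2 libraries. Mir429 stood between Mir337 (3085 CPM) and Mir16-1 (2910 CPM). Mir205 stood between Mir125a (2678 CPM) and Mir351 (2590 CPM). Mir200c came just below Mir370 (1322 CPM) and Mir203 just above Mir34c (1203 CPM). Mir200b stood between Mir18b (925 CPM) and Mir27b (874 CPM), Mir200a between Mir1306 (390 CPM) and Mir204 (385 CPM), and Mir141 between Mir505 (268 CPM) and Mir101a (263 CPM). The differences to these 12 neighbours ran from 0.0043 to 0.061 on the log2 scale.

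The chromosome 4 cluster gave more reads than the chromosome 6 cluster. It is transcribed from the minus strand in the order Mir200b, Mir200a, Mir429 and spans 1846 nt. In mm10, Mir200b (ENSMUSG00000065549.2) is at chr4:156055681-156055750, Mir200a (ENSMUSG00000065400.1) at chr4:156054896-156054985 and Mir429 (ENSMUSG00000065427.1) at chr4:156053905-156053987. In GENCODE M21, Mir200b and Mir200a lie in an intron and Mir429 in an exon of the non-coding gene Gm13648, and all lie in introns of the tubulin ligase-like gene Ttll10 on the same strand. The cluster held 15366 reads in replicate 1 and 13718 in replicate 2. The last hairpin of the transcript, Mir429, had 3.50 times the reads of the first, Mir200b, in replicate 1 and 3.14 times in replicate 2. The middle hairpin, Mir200a, was the lowest, and Mir200b exceeded it 2.14 times in replicate 1 and 2.59 times in replicate 2. Level therefore did not follow the order of the hairpins.

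The chromosome 6 cluster spans 477 nt, with Mir200c first and Mir141 second on the minus strand. Mir200c (ENSMUSG00000065462.2) is at chr6:124718322-124718390 and Mir141 (ENSMUSG00000065474.1) at chr6:124717914-124717985, both in an intron of the non-coding gene Gm15884. The cluster held 5623 reads in replicate 1 and 5133 in replicate 2. Mir200c exceeded Mir141 by 5.21 times in replicate 1 and 4.65 times in replicate 2.

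**Figure D3:**
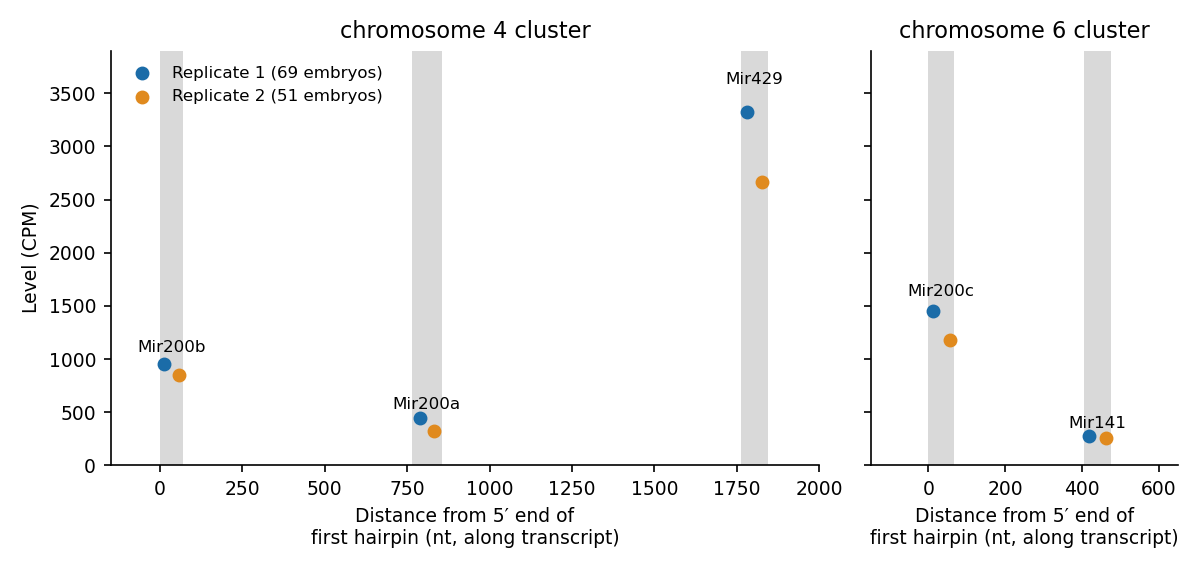
Level in CPM (y axis, from 0) against distance in nt from the 5′ end of the first hairpin of each cluster (x axis), with grey bands for hairpins, blue points for replicate 1 and orange points for replicate 2. Mir429, the last hairpin on chromosome 4, is highest, and Mir200a and Mir141 are the lowest of their clusters.

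The balance between clusters and between the genes of the 2 seed groups was almost the same in the 2 libraries. The chromosome 4 cluster exceeded the chromosome 6 cluster 2.73 times in replicate 1 and 2.67 times in replicate 2, a log2 difference of 1.43 ± 0.023 (SD, n = 2). The genes of the seed AAUACUG, Mir200b, Mir200c and Mir429, held 88.8% of the miR-200 reads in replicate 1 and 89.0% in replicate 2. These are reads of whole hairpins, so they can include the other arm, which has another seed. Together these genes exceeded those of the seed AACACUG 7.93 times in replicate 1 and 8.07 times in replicate 2. On the log2 scale this was 2.99 in replicate 1 and 3.01 in replicate 2 (SD 0.018, n = 2). The lowest gene of each cluster, Mir200a on chromosome 4 and Mir141 on chromosome 6, carries the seed AACACUG. Single pairs varied more, with an SD of 0.20 between Mir200b and Mir200a and of 0.12 between Mir200c and Mir141 on the log2 scale.

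The promoter of Gm13648, which hosts the chromosome 4 hairpins, was searched for the E-box CAGGTG on both strands, the kind of site that Zeb proteins bind. The 300 bases from 250 before to 50 after its annotated start, chr4:156059753-156060052 on the minus strand of GRCm38.p6 (RefSeq), are shown because the 3 hairpins lie downstream of it, with the matches in capitals.
Gm13648 promoter: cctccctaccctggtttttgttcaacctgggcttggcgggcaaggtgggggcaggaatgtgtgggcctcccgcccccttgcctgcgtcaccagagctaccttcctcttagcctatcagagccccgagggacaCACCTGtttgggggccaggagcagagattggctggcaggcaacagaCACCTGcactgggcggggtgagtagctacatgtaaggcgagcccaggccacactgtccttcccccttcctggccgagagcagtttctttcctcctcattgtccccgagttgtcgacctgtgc
It held 2 matches, whose first bases lie 118 and 72 bases before the start. Of 32851 RefSeq promoters of this length, 20.2% held at least 1 match and 2.88% at least 2. The promoter of Mir205hg, the host of Mir205, held 1 match. These are matches of letters in a window, and binding was not measured.

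Mir205 (ENSMUSG00000065533.1) is at chr1:193507463-193507530 on the minus strand, in an exon of 4631405K08Rik, the non-coding gene that RefSeq names Mir205hg. Its nearest protein-coding gene, Camk1g, is 137165 bases away. Mir203 (ENSMUSG00000065574.1) is at chr12:112130880-112130955 on the plus strand. It lies inside no other gene of GENCODE M21, and Aspg is the nearest coding gene, 3321 bases away.

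Mir203 was the only member with more than 1 read on the opposite strand. It had 78 opposite reads in replicate 1 and 71 in replicate 2, which is 1.80% of its reads on either strand in replicate 1 and 1.63% in replicate 2. Of the other members, Mir141 had 1 opposite read in replicate 1 and the 5 others had 0, which allows up to 3 reads or 0.921 CPM in replicate 1 and 0.839 CPM in replicate 2. Of the 401 genes tested, 368 had no opposite read and 10 had a larger opposite share than Mir203. RefSeq lists a hairpin of 60 nt, Gm51289 or Mir203b, inside Mir203 on the other strand. The Mir203 hairpin is shown with its 2 mature arms in capitals, followed by the mature arms of Mir203b with seeds in capitals, because their overlap bears on these reads.
Mir203 hairpin: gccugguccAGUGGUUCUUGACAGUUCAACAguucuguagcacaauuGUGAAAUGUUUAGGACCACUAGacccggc
miR-203b-5p: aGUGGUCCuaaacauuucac
miR-203b-3p: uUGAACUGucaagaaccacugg
Each mature arm of Mir203b lies opposite a mature arm of Mir203 over 20 nt, miR-203b-5p opposite miR-203-3p and miR-203b-3p opposite miR-203-5p. The seeds of the mature arms of Mir203b, GUGGUCC and UGAACUG, are not those of miR-203. Mir203b was not matched to a counted gene, and which arm the opposite reads cover is not given by counts per hairpin.

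Most members had a larger share of the reads in replicate 1. The log2 ratio sets replicate 1 over replicate 2, with library sizes scaled by edgeR's TMM factors and a pseudocount of 0.5 counts. For each gene a two-sided exact binomial test set the split of its reads against the scaled library sizes, and p-values were adjusted over 401 genes by the Benjamini-Hochberg method. The test knows counting error alone, so it speaks of this pair of libraries and of no condition. By this test 5 of 7 members were higher in replicate 1 and none was lower, while Mir141 and Mir205 did not pass. At an unadjusted p of 0.05 the counts were the same 5 and 0. Over all 401 genes 43.4% were called, 19.7% as higher and 23.7% as lower in replicate 1. Among the 117 genes whose mean counts lay within the range of the members, 907 to 10173 reads, 74.4% were called and 34.2% were higher in replicate 1. The median ratio of the members was 0.13, against −0.027 over all genes tested.

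Mir200a had the largest ratio. It was higher by 0.41 in replicate 1, with a 95% exact interval of 0.30 to 0.52 (adjusted p = 2.4e-12, exact binomial test). Mir429 was higher by 0.29 (0.25 to 0.33, adjusted p = 1.9e-45, exact binomial test) and Mir200c by 0.26 (0.20 to 0.32, adjusted p = 4.7e-17, exact binomial test). Mir200b was higher by 0.13 (0.058 to 0.20, adjusted p = 0.0012, exact binomial test) and Mir203 by 0.098 (0.037 to 0.16, adjusted p = 0.0047, exact binomial test). Mir141 had a ratio of 0.098 with an interval of −0.037 to 0.23 (adjusted p = 0.27, exact binomial test). Mir205 had a ratio of −0.035 with an interval of −0.078 to 0.0075 (adjusted p = 0.20, exact binomial test), and with TMM factors from all genes it was called lower, at −0.059 (adjusted p = 0.018, exact binomial test). Over all scalings and filters tried, its adjusted p ranged from 0.018 to 0.95 (exact binomial test).

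The sizes of these ratios were read beside those of other genes. The SD of the log2 ratio was 0.26 over the 271 genes averaging at least 100 reads, with a median absolute ratio of 0.14, and 20 of these genes had a larger ratio in size than Mir200a. For Mir429 it was 47, for Mir200c 64 and for Mir200b 145. Mir205 was smaller in size than 235 of the 271. Within the chromosome 4 cluster the intervals of Mir429 and Mir200b did not overlap, nor did those of Mir200a and Mir200b, while those of Mir200a and Mir429 did. On chromosome 6 the intervals of Mir200c and Mir141 overlapped. The intervals cover counting error alone, and how many other gene pairs lack overlap was not counted. Among the 117 genes with mean counts in the range of the members, 74.4% were called. No difference in behaviour between the hairpins of a cluster is drawn from these intervals.

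**Figure D4:**
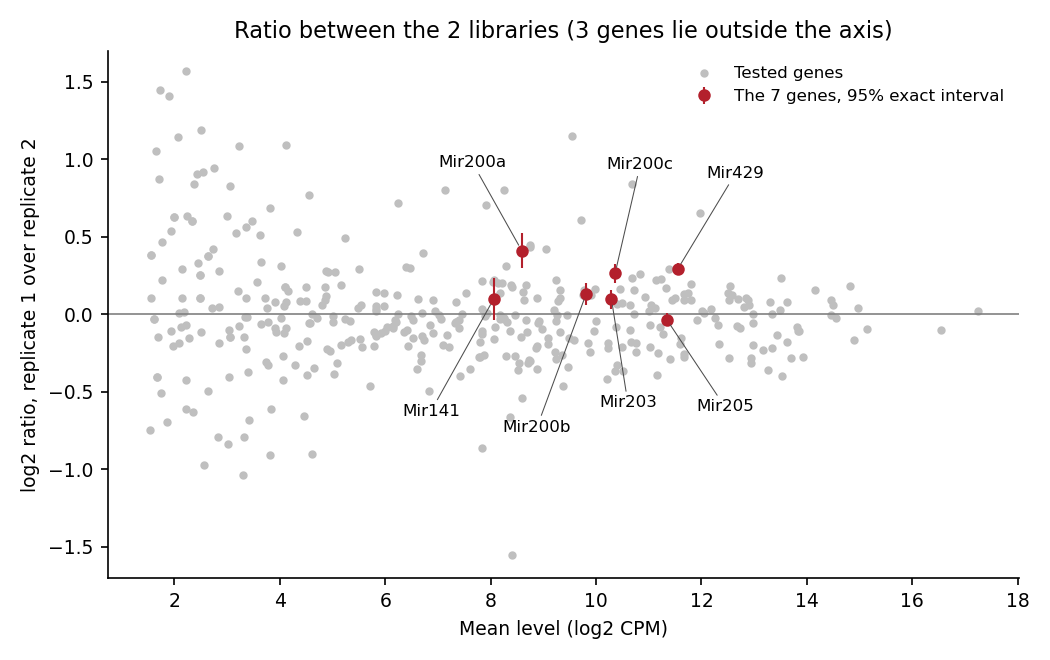
log2 ratio of replicate 1 over replicate 2 (y axis) against mean level in log2 CPM (x axis) for the tested genes, in grey, and the 7 genes, in red with 95% exact intervals that cover counting error only. The 7 genes lie between −0.035 and 0.41, within the band of genes of like level, and 3 grey genes lie outside the axis.

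miRNAs of tissues next to the forebrain were read beside the 7 genes, since a dissected embryonic forebrain may carry surface ectoderm, olfactory and eye tissue, mesenchyme and vessels. The lists differ in size and were set side by side as descriptions. Their counts of called genes stand beside 43.4% called over all 401 genes, 19.7% as higher and 23.7% as lower in replicate 1. Among the 117 genes with mean counts in the range of the members, 74.4% were called. No gene counted for these lists was at 0 in either library, while Mir9-1 was not analysed here. The eye and sensory placode list, of the Mir183 cluster (Mir96, Mir182, Mir183) and Mir184, Mir204 and Mir211, held 0.838% of the counts in replicate 1 and 0.835% in replicate 2. Mir182, a miRNA of hair cells and photoreceptors, led it with 4285 CPM in replicate 1 and 4167 CPM in replicate 2. Of its 6 genes 1 was higher and 4 were lower in replicate 1, with a median ratio of −0.32. Mir211 and Mir204, known from pigment cells, the retina's pigment layer and the choroid plexus, were among those lower, at −1.55 and −0.54, whereas Mir183 was higher by 0.23.

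The other epithelial list named Mir31, Mir224, Mir452, Mir375, Mir21a, Mir192, Mir194-1, Mir194-2 and Mir215. It held 0.929% of the counts in replicate 1 and 0.927% in replicate 2. Mir21a, which is expressed in many tissues, made up 85.7% of this in replicate 1 and 87.6% in replicate 2. Without it the list held 0.133% in replicate 1 and 0.115% in replicate 2. Of 7 genes tested 2 were higher and 1 was lower in replicate 1, with a median of −0.058. Mir375, known from endocrine and epithelial cells, was higher by 0.42, and Mir31 of skin epithelium by 0.22. The gut epithelial genes Mir192 and Mir194-2 had 70.8 and 73.6 CPM on average and did not pass the test. The multiciliated list (Mir34b, Mir34c, Mir449a, Mir449b, Mir449c) held 0.222% in replicate 1 and 0.179% in replicate 2, with a median of 0.13. Of its 4 genes tested, Mir449a was higher by 1.15 in replicate 1 and Mir34c was lower, at −0.22.

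The head mesenchyme list held 0.785% of the counts in replicate 1 and 0.757% in replicate 2, led by Mir214 with 3840 CPM in replicate 1 and 3861 CPM in replicate 2. Of its 5 genes 1 was higher and 1 lower in replicate 1, with a median ratio of −0.039. The endothelium and vessel wall list held 3.29% in replicate 1 and 3.53% in replicate 2, most of it Mir126a, with 1 gene higher and 1 lower of 3 and a median of −0.12. In the forebrain progenitor list, with 2.03% in replicate 1 and 1.77% in replicate 2, 4 of 5 genes were higher and none was lower, with a median of 0.18. Mir92b made up 95.6% of this list in replicate 1 and 96.1% in replicate 2. Without Mir92b the list held 0.0899% of the counts in replicate 1 and 0.0698% in replicate 2. The Hox-cluster list, with 0.0245% in replicate 1 and 0.0309% in replicate 2, had 2 of 5 lower and none higher, with a median of −0.46. The erythroid list, led by Mir451a, held 0.0693% in replicate 1 and 0.0792% in replicate 2, with 1 of 3 lower, none higher and a median of −0.014. Calls were common, at 43.4% of all 401 genes tested, and no shift of a cell type between the pools is drawn from these counts. The part of these other cell types in the ratios of the 7 genes was not tested.

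**Figure D5:**
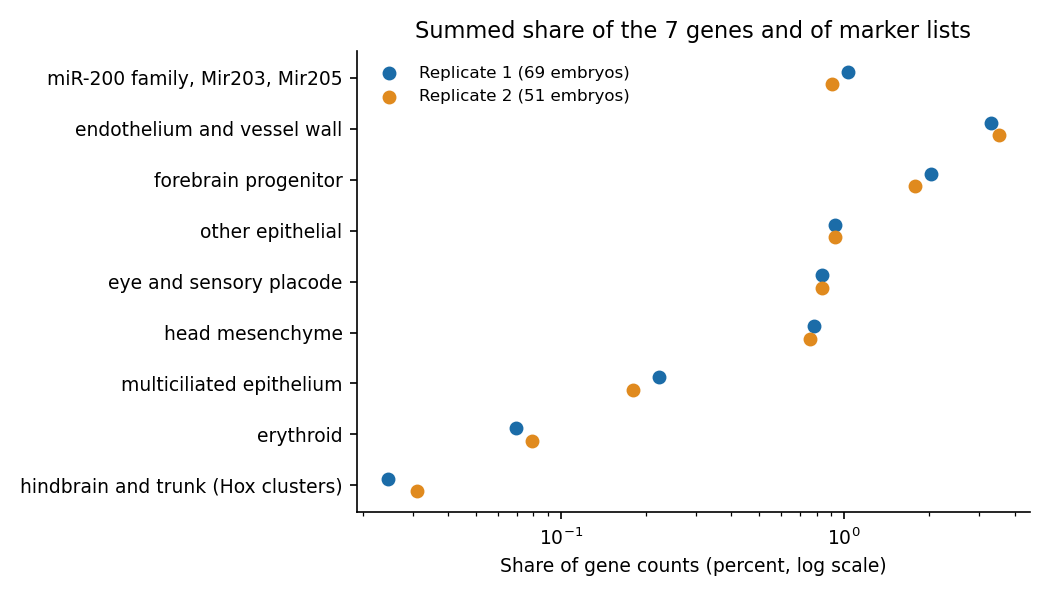
Summed share of gene counts in percent (x axis, log scale) for the 7 genes, on the top line, and for marker lists of other cell types below it, with blue points for replicate 1 and orange points for replicate 2. The 7 genes hold about as much as the other epithelial, eye and head mesenchyme lists, and more than the erythroid and Hox-cluster lists. Most of the other epithelial share is Mir21a, and without it that list holds 0.133% in replicate 1 and 0.115% in replicate 2.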

How the data were processed

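Small RNA was sequenced from 2 forebrain libraries of 1 group. The authors deposited raw counts of reads per gene, on either strand, on the strand of the gene and on the opposite strand. Which column holds which strand was read from the values, since the first is the sum of the others and 1 of those holds nearly all gene reads. The build was mm10 and the annotation M4, per the submitters' deposited notes. For aligner, trimming and counter the names were not given in the sources used here. The strand-of-gene count was used. It held 96.7% of the reads on genes in replicate 1 and 96.4% in replicate 2. Reads not counted on the strand of a gene were left out of library sizes. Of all reads of replicate 1, 24.6% were unmapped, 30.1% at several places and 7.28% outside genes or on the opposite strand of genes. In replicate 2 these shares were 25.4%, 28.8% and 8.82%.

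List genes under another symbol were found by RefSeq synonym (Mir486a as Mir486). Symbols and positions came from GENCODE M21, which matched 1894 of 1973 identifiers, and sequences from RefSeq GRCm38.p6. The rule for named genes took the 7 members, the genes next above and below each in mean level, the highest gene of each marker list and Mir203b. Other genes of the marker lists were named after their values were seen. The members and lists were chosen with earlier results of these data known.

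TMM factors came from edgeR 4.0.16 (R 4.3.3), over the 401 genes averaging at least 10 reads. DESeq2 1.42.0 size factors, total counts, TMM over all genes (chosen after seeing the data), other filters, another pseudocount, the either-strand count, all mapped reads, levels per hairpin base and each library alone were the alternatives. Tests ran in scipy 1.17.1 with numpy 2.4.6, tables in pandas 2.3.3 and plots in matplotlib 3.10.9, under Python 3.11.15. edgeR's quasi-likelihood test needs replicates within each side and was not used. The libraries are numbered as biological replicates from separate pools. The chi-square of their counts over its degrees of freedom was 30.1, so they differed by more than sampling noise gives. This value sets squared differences, not differences, against those of sampling noise, and edgeR's biological coefficient of variation was 14.0%. Tested on simulated data for this library comparison over 401 genes, the share called was 59% at a 1.25-fold change, 81% at a 2-fold change and 1% with no change. The simulated counts held sampling noise only and no spread between pools. The 1% is therefore not the rate of false calls for these 2 libraries.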

Additional observations from a re-analysis of the deposited data

Results flagged for a closer look

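Mir203 had reads on the strand opposite to the gene, 78 in replicate 1 and 71 in replicate 2. This count is outside the main measurement, and it lies above the 3 reads that a count of 0 allows in both libraries. There is no control sample to set it against.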

How the results depend on the processing

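The ratios of the 7 genes kept their direction and calls for total counts, DESeq2 size factors, other filters, a pseudocount of 5 and the either-strand count. With TMM over all genes, an alternative chosen after seeing the data, 1 member, Mir205, was called lower in replicate 1, at −0.059, against none before. Over all genes tested, 79 were higher and 95 lower in replicate 1, but 93 were higher and 84 lower with total counts, where the median ratio of all genes was 0.0034 rather than −0.027. In each direction the number of genes called stayed within 1.5 times under each of these settings. Over all mapped reads, with those at several places, outside genes or on the opposite strand of genes added, the 7 genes held 0.486% rather than 0.971%. Per hairpin base, the log2 difference between the clusters was 1.22 and that between the genes of the seed groups 3.09, and Mir429 lay below Mir205, at −0.093. With each library alone, the log2 difference between Mir200c and Mir203 ranged from −0.020 to 0.15, so its sign rests on which library is used. The cause of these changes was not tested, beyond the changed divisors. No paired analysis was possible because there is only 1 group. With 2 libraries the spread between pools is known only roughly, and reads lost to multiple mapping limit all shares.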
